A study of Mus musculus with 6 samples.

Results

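The regions described here are stretches of open chromatin that carried an ATAC-seq peak in all 6 samples and lay away from the ends of genes. Merging peaks of the 6 samples wherever they had 1 bp or more in common gave 75961 regions, of which 31159 had a peak in every sample. Of these shared regions, 20509 (65.8%) lay clear of the windows reaching 1 kb to either side of each annotated end of protein-coding genes, and they are called distal shared regions below. The remaining 10650 touched such a window. A peak in every sample was the measured value that chose the regions, and it was required equally of both genotypes, so the presence of a peak is not a result here. The number of bases covered by each sample's peaks in a region, called its width below, was not used for the choice and is the measurement compared.

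The samples were lineage-depleted bone marrow cells, a fraction enriched for haematopoietic stem and progenitor cells, from mice of the C57BL/6 strain. Of the 6, 3 were wild type for Utx (samples WT1, WT2 and WT3) and 3 were Utx knockout (KO1, KO2 and KO3). All groups share strain and cell fraction, and the labels name no treatment, age, sex, Cre driver or deleted exon, nor do they tell if each sample is its own animal. The spread that p-values rest on is therefore that between these 6 samples, which may be technical. The measurement was ATAC-seq, in which a transposase cuts accessible DNA and tags it for sequencing, and the comparison asked how loss of Utx changes open chromatin in these cells.

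Open regions away from promoters include enhancers, which bind combinations of transcription factors and act on genes nearby or far off along the chromosome. UTX, encoded by Kdm6a, removes methyl groups from lysine 27 of histone H3 and belongs to the COMPASS-like complexes of the methyltransferases MLL3 and MLL4, which mark enhancers. In blood progenitors such elements are bound by GATA, ETS and RUNX factors, and their accessibility differs between erythroid, myeloid and lymphoid cells. A peak is the stretch over which the cut density passed the caller's threshold, so its width reflects both the extent of open DNA and the strength of the signal.

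A minority of distal shared regions hold a transcription start annotated by RefSeq, often of an alternative transcript or a non-coding RNA, and 6 of these starts show the kinds of change found in width. Each line below gives the 250 bases before a start, 5′ to 3′ on the strand of the gene, from RefSeq for GRCm38.p6, the assembly also known as mm10. Capitals mark matches on either strand to 7 motif words searched. The words were AGATAA for the erythroid GATA factors, GGAAGT for the ETS family, TGTGGT for the RUNX family, TGANTCA for the AP-1 family, TTGCNNAA for the CEBP family, AGGGGGC for CTCF and a palindromic word for EBF, where N is any base, and no 2 of them share a site within these sequences. The Gata2 and Ampd3 starts lay in regions that narrowed in knockout without losing every peak over the start, the Shld1 start was left without a knockout peak, the Runx1 region kept its width, and the Slamf7 and Fcrla starts lay under knockout peaks only. They were chosen after their values were seen.
Gata2, chr6:88198414-88198663, plus strand: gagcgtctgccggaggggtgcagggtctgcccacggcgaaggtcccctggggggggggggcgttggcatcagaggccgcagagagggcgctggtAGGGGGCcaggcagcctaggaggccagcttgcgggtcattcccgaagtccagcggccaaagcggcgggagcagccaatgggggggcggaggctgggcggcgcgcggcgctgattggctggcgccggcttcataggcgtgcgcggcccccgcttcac
Ampd3, chr7:110773386-110773635, plus strand: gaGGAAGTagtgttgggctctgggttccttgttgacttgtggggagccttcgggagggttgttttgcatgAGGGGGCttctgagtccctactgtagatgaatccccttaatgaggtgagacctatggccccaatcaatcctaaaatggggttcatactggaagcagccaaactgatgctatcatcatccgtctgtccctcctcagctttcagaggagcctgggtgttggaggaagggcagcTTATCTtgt
Shld1, chr2:132689907-132690156, plus strand: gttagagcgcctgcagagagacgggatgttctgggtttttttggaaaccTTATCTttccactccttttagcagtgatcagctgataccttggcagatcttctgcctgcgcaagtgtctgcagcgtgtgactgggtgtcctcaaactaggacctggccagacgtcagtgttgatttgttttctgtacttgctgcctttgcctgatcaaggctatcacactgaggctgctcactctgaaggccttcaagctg
Runx1, chr16:92697330-92697579, minus strand: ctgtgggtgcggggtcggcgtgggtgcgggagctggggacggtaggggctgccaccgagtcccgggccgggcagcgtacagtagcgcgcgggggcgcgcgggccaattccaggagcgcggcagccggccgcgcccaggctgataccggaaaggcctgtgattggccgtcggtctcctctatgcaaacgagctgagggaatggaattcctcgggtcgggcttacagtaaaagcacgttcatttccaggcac
Slamf7, chr1:171649000-171649249, minus strand: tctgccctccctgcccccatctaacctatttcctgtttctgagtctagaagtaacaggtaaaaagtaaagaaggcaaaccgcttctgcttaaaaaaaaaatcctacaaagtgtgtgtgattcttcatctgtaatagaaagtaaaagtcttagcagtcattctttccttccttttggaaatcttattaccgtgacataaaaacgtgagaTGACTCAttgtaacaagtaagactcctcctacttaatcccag
Fcrla, chr1:170927584-170927833, minus strand: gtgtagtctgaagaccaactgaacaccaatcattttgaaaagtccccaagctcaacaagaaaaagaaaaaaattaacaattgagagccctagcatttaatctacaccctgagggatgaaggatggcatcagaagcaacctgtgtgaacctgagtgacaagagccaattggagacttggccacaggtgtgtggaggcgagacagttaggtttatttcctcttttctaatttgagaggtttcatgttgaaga
A match describes the letters of the window and is not a binding site, and a window without one says nothing about the factor.

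Kdm6a itself (chrX:18160862-18279936) held 2 distal shared regions, and neither passed the test. The first, chrX:18187134-18187584, was 312, 380 and 451 bp wide in WT1, WT2 and WT3 and 292, 330 and 287 bp in KO1, KO2 and KO3 (log2 difference -0.32, limma adjusted p = 0.206). The second, chrX:18254702-18255114, was 212, 392 and 380 bp wide in wild type and 359, 379 and 352 bp in knockout (log2 difference 0.20, adjusted p = 0.586). The groups overlapped in both. The deleted part of the gene is not given in the labels, so these widths do not check the genotype.

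Distal shared regions were slightly narrower in knockout as a whole, and a smaller number changed strongly in either direction. Their median width was 483, 472 and 459 bp in WT1, WT2 and WT3 and 437, 472 and 430 bp in KO1, KO2 and KO3. KO1 and KO3 lay below every wild-type sample, whereas KO2 equalled WT2. The median of the log2 differences, knockout minus wild type, was -0.11, against -0.09 for shared regions at gene ends and -0.10 for all shared regions, and 64.1% of distal shared regions had a difference below 0. The depth of the libraries is unknown, because the lists hold coordinates alone, and its part in this shift was not tested. Narrow regions were more frequent in KO1 and KO3: 1508 and 1905 of the regions were under 250 bp wide there, against 733 in KO2 and 556 to 874 in wild type. The narrowest peak in these regions was 199 bp in every sample.

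**Figure D1:**
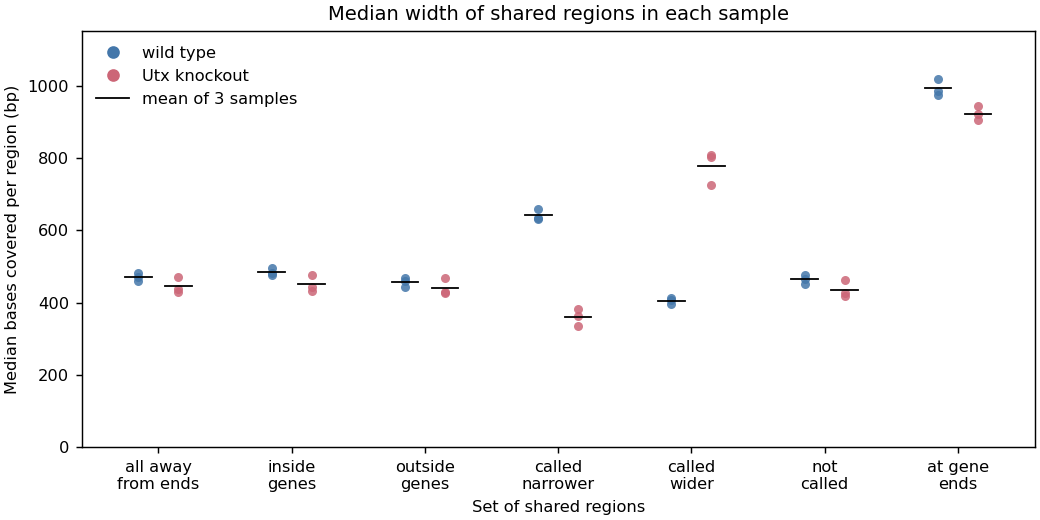
Median bases covered per region (bp) in each of the 3 wild-type and 3 Utx-knockout samples, for sets of shared regions; points are samples and bars are means of 3. Called sets were selected on this difference, so their separation is a description, while over all distal shared regions KO2, at 472 bp, lay among the wild-type samples.

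In the test across all 31159 shared regions (limma on log2 width, Benjamini-Hochberg adjusted p under 0.05), 1737 distal shared regions (8.47%) were narrower in knockout and 1546 (7.54%) were wider. Over all shared regions the called shares were 8.84% narrower and 6.34% wider, 15.2% in all. The distal regions thus had a share of narrower calls near that background and a share of wider calls somewhat above it. Among shared regions at gene ends 1016 (9.54%) were narrower and 429 (4.03%) wider, so that 70.3% of their calls were narrower against 52.9% of the distal calls, a difference that was not tested. The balance depends on scaling: with each sample centred on its own median, 43.6% of the distal calls were narrower (1463 narrower and 1896 wider), and with quantile normalization 37.6% (1247 and 2066). The number of narrower calls fell to 917, 888, 945 and 926 without WT1, WT2, WT3 or KO3, and the number of wider calls fell to 979 without KO3, each in a fit with fewer samples. Of the narrower calls 630 (36.3%), and of the wider calls 847 (54.8%), stood in all 6 fits that leave out 1 sample, and these are called firm below.

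Without any model, all 3 knockout widths lay below all 3 wild-type widths in 5268 distal shared regions (25.7%) and above them in 2978 (14.5%). Over all shared regions the shares were 26.7% and 12.8%, 39.6% in all. With 3 samples against 3, an exact permutation test of a single region cannot go below p = 0.1, so the calls rest on the spread shared across regions in limma. At an unadjusted limma p under 0.05, 6984 of the 20509 distal shared regions passed, in either direction. That count is not corrected for the number of regions tested, so it includes false positives. It was not made over all shared regions, so it does not set the distal ones apart.

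Called regions changed in width by the following amounts. Narrower regions had a median log2 difference of -0.68 (range -2.94 to -0.23), and their median width was 634, 631 and 659 bp in WT1, WT2 and WT3 and 364, 383 and 336 bp in KO1, KO2 and KO3. Wider regions had a median of 0.82 (range 0.22 to 2.83), from 408, 414 and 395 bp in wild type to 724.5, 801.5 and 808 bp in knockout. The change exceeded 2-fold in 391 narrower (22.5%) and 497 wider regions (32.1%). The groups overlapped in 0 of the called regions. The wider set was narrow in wild type, below the median of 477, 465 and 451 bp for the 17226 regions not called, and the narrower set was wide in wild type. Since calls were made on these widths, that order is a description.

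In most called regions both edges shifted. In narrower regions the lower edge of the covered stretch lay a median of 96.7 bp and the upper edge 94.3 bp further inward in knockout, and both edges lay inward in 94.5% of them. In wider regions the edges lay 136 bp and 140 bp further outward, and both did so in 92.5%. Among regions not called, both edges lay inward in 48.1% and outward in 18.8%. Calls were made on width, so the direction of the edge shifts follows from them. A change of which more than 90% fell on 1 side was found in 295 narrower (17.0%) and 218 wider regions (14.1%). The share was similar, 15.5%, among regions not called. Splitting of peaks was the exception, though more frequent in called regions. Every sample had exactly 1 peak in 93.4% of distal shared regions, in 84.7% of narrower, 83.8% of wider and 95.1% of those not called. The 1360 regions with several peaks in some sample had 265 narrower (19.5%) and 250 wider calls (18.4%), against 8.47% and 7.54% of all distal shared regions.

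**Figure D2:**
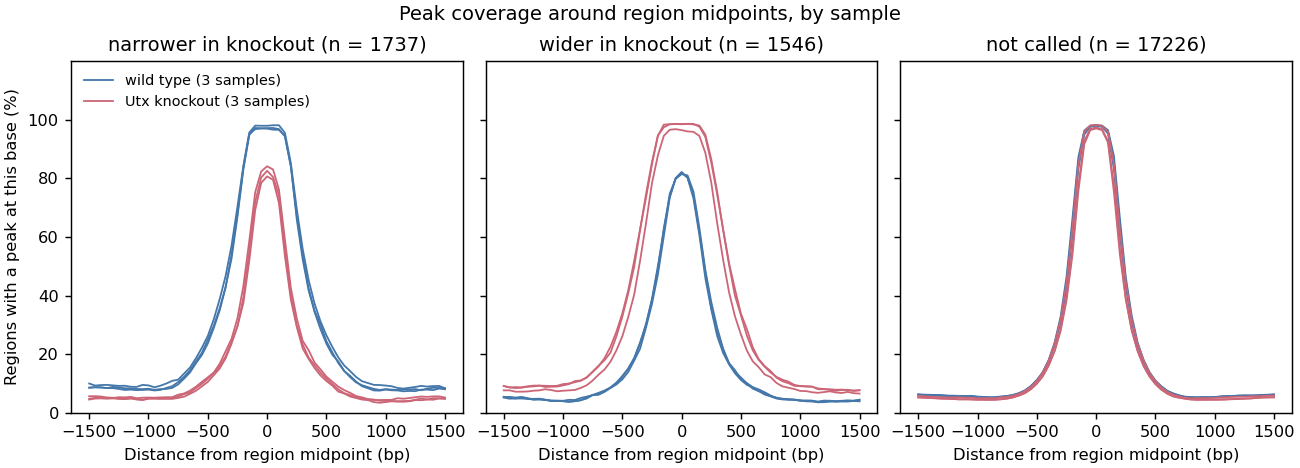
Share of regions with a peak at each distance (bp) from the midpoint of the merged region, 1 line per sample, for narrower, wider and not called distal shared regions. The 3 knockout lines run inside the 3 wild-type lines on both sides in narrower regions and outside them in wider regions, and in the 17226 regions not called KO2 lies among the wild-type lines at -200 bp (62.8% of regions, against 60.6% to 66.2%) and KO1 and KO3 lie inside them (55.6% and 53.8%).

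The shares of narrower and wider calls differed with position and width. Over all distal shared regions 8.47% were narrower and 7.54% wider. Inside protein-coding genes 1043 of 11376 regions were narrower (9.17%) and 787 wider (6.92%). Outside them 694 of 9133 were narrower (7.60%) and 759 wider (8.31%). With distance from the nearest gene end the narrower share fell and the wider share rose: between 1 and 5 kb 9.65% were narrower and 5.33% wider, from 5 to 20 kb 9.34% and 7.02%, from 20 to 50 kb 7.74% and 8.09%, and beyond 50 kb 6.92% and 9.78%. By quartile of mean width, from the narrowest regions to the widest, the narrower share was 6.43%, 8.05%, 8.96% and 10.4% and the wider share 2.16%, 5.48%, 10.4% and 12.2%. The narrowest quartile held regions with mean widths of 209 to 359 bp, near the smallest peak width of 199 bp. On chromosome X, which carries Kdm6a, 20 of 394 regions were narrower (5.08%) and 24 wider (6.09%). None of these shares was tested between classes.

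The boundary of 1 kb set no visible step. Regions just outside the rule, 750 to 1000 bp from a gene end, numbered 445 with 37 narrower (8.31%) and 23 wider (5.17%). Those just inside it, up to 250 bp farther out than the limit, numbered 418 with 39 (9.33%) and 21 (5.02%). Over all shared regions the shares were 8.84% and 6.34%. Distal regions with a peak in only 5 of the 6 samples numbered 4747 and were narrow, with a median of 312.8 bp in the 5 samples. KO3 was the sample without a peak in 2026 of them and KO1 in 1242, against 294 for KO2 and 256 to 538 for a wild-type sample. The requirement of 6 peaks thus left out weak regions missed mostly in KO1 and KO3.

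Narrower and wider regions differed in what lay near them. A region present in all 3 wild-type and no knockout samples, called lost, lay within 20 kb of 764 narrower regions (44.0%), 290 wider (18.8%) and 26.3% of those not called. A region gained, present in all 3 knockout samples only, lay within 20 kb of 137 narrower (7.89%), 522 wider (33.8%) and 12.5% of the rest. A called distal shared neighbour lay within 20 kb of 412 of the 1737 narrower regions. The nearest such neighbour was narrower too for 313 of them (76.0%), where 52.9% of all called distal regions were narrower. Of the 1546 wider regions, 428 had a called neighbour and it was wider for 330 (77.1%), where 47.1% of all called distal regions were wider. Neighbouring regions share their samples and their surroundings, and these shares are descriptions.

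By nearest protein-coding gene within 50 kb, the regions fell to 7463 genes, of which 1332 had a narrower and 997 a wider region, and 168 had both. At least 2 narrower regions were found at 207 genes and at least 2 wider ones at 198. The most narrower calls, at genes picked after their values were seen, were at Gse1, a protein found in complexes with a histone demethylase and deacetylases, with 10 narrower and 3 wider of 26 regions. Igf1r, a growth factor receptor, followed in narrower calls with 5 narrower and 0 wider of 14. At Gse1 the narrower regions had log2 differences of -1.61 to -0.59. In the other direction, Foxp1, a forkhead factor needed in B cell development, had 6 wider and 0 narrower of 29 regions (0.54 to 1.82), and the chromatin remodeller Chd7 had 5 of 14, Ets1 5 of 13, Fbxl17 5 of 15 and Lhpp 5 of 6. Over all distal shared regions 8.47% were narrower and 7.54% wider. All these genes were picked for their number of calls, and counts of this kind can be higher where a gene has more regions.

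The 8 largest decreases, all firm, lay at genes of varied function. Vopp1, a vesicle protein, held a region (chr6:57764855-57768088) that was 2822, 2621 and 3234 bp wide in WT1, WT2 and WT3 and 390, 431 and 313 bp in KO1, KO2 and KO3. All knockout widths there were far below every wild-type width (log2 difference -2.94 ± 0.14 SE, limma adjusted p = 1.81e-04). In Tbxas1, the thromboxane synthase of platelets and macrophages, the region chr6:38899975-38901537 was 1405, 1462 and 1563 bp wide in wild type and 207, 470 and 225 bp in knockout (-2.40 ± 0.29, adjusted p = 0.00273). The other 6 lay in Gm30990 (1843 ± 141 bp against 270 ± 59.8 bp, SD, n = 3 each), Shc4 and Arhgef37 and near Zfp760, Srrm1 and Pak6, with log2 differences of -2.79 to -2.41. Shc4 encodes a signalling adaptor and Pak6 a kinase.

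Among the 8 largest increases, all firm, were regions at 2 genes of lymphoid cells. Slamf7, a surface receptor of plasma and NK cells, overlapped the region chr1:171647286-171649278, which was 228, 282 and 410 bp wide in WT1, WT2 and WT3 and 1342, 1903 and 1813 bp in KO1, KO2 and KO3 (log2 difference 2.49 ± 0.23 SE, limma adjusted p = 9.91e-04). Fcrla, an Fc receptor-like protein of B cells, overlapped chr1:170926947-170929443, at 515, 498 and 319 bp in wild type and 2219, 2497 and 2362 bp in knockout (2.44 ± 0.18, adjusted p = 4.88e-04). In both, every knockout value was far above every wild-type value, and the peaks of knockout samples alone covered the RefSeq start printed above. The largest increase lay 9530 bp from Dusp22, a phosphatase that restrains T cell receptor signalling, at 286 ± 89.6 bp in wild type and 1995 ± 317 bp in knockout (SD, n = 3 each; 2.83 ± 0.22, adjusted p = 6.05e-04). Prep, Slc2a9, Lipc and Chst3 carried or neighboured 4 more (2.45 to 2.77), and 1, at chr10:118976007-118978639, had no protein-coding gene within 50 kb (2.68).

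The widest called region lay over the immunoglobulin heavy chain locus and was picked after its values were seen. It spanned chr12:113418533-113429468, across the Ighm constant region and the joining segments Ighj4 and Ighj3, and only its last base touched Ighj2. Joining segments are brought together with V and D segments in B cell precursors. Peaks covered 2251, 2368 and 2837 bp of the region in WT1, WT2 and WT3 and 10017, 10446 and 10875 bp in KO1, KO2 and KO3. All knockout widths were far above every wild-type width (log2 difference 2.08 ± 0.08 SE, limma adjusted p = 1.34e-04), and the call was firm. By contrast, the 5 widest distal shared regions, 2 on an unplaced contig, 1 in Sfi1 and 2 near the start of the chromosome 9 sequence, had log2 differences of -0.01 to 0.02 and were not called. The Sfi1 region (chr11:3184191-3200029) was 15685 ± 143 bp wide in wild type and 15715 ± 133 bp in knockout (SD, n = 3 each).

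Of the regions that passed the test near genes of the erythroid GATA factor programme, all but 1 were narrower in knockout. A list of 35 GATA factor and erythroid genes had 50 distal shared regions in or within 20 kb of 18 of them, of which 18 were narrower (36.0%), 1 was wider and 31 did not pass, against 8.47% and 7.54% of all distal shared regions. Their median log2 difference was -0.28, against -0.11 over all distal and -0.10 over all shared regions. The list's median width was 555.5, 573.5 and 603.5 bp in WT1, WT2 and WT3 and 429.5, 515 and 472.5 bp in KO1, KO2 and KO3, without overlap. The count fell to 11, 10 and 11 without WT1, WT2 or WT3, and 8 of the 18 narrower calls were firm. No region of the list lay near Gata1 itself, whose 1 shared region touches a gene end, nor near the globin genes Hba-a1, Hba-a2, Hbb-bt and Hbb-bs, Klf1 or Epor. In bulk samples, fewer cells of a type and a weaker signal per cell cannot be told apart.

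Gata2 and Tal1, which encode factors of stem cells, mast cells and early erythroid cells, had narrower calls at every distal shared region. The region chr6:88197080-88199649, which reaches into Gata2, was 2417, 1383 and 1407 bp wide in WT1, WT2 and WT3 and 494, 664 and 275 bp in KO1, KO2 and KO3. All knockout widths were below every wild-type width, although WT1 stood well above WT2 and WT3 (log2 difference -1.90 ± 0.35 SE, limma adjusted p = 0.0126). It holds the Gata2 start printed above, which lay under a peak in all 6 samples, and 2 starts of the non-coding RNA Gm38708, at 88197383 and 88197448 on the minus strand, which lay under wild-type peaks only. The other Gata2 region, 3840 bp from the gene, was 558, 542 and 542 bp in wild type and 396, 390 and 376 bp in knockout (-0.50, adjusted p = 0.015). Its call was lost without WT1 or WT2.

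At Tal1, encoding SCL, which joins GATA factors in erythroid complexes, 4 of 4 regions were narrower. The one that overlaps the gene, chr4:115062296-115064143, was 1681, 1704 and 1671 bp wide in WT1, WT2 and WT3 and 980, 999 and 1008 bp in KO1, KO2 and KO3 (log2 difference -0.76 ± 0.06 SE, limma adjusted p = 5.83e-04). The samples of each genotype were close to each other and the genotypes far apart. The region 7769 bp from the gene and 4515 bp outside its neighbour Stil was 902, 880 and 929 bp in wild type and 387, 407 and 277 bp in knockout (-1.36, adjusted p = 0.00221). Both of these calls were firm. The 2 others had log2 differences of -0.80 and -0.68, with adjusted p values of 0.029 and 0.0312. They were lost without WT2, WT3, KO2 or KO3, and the first also without KO1.

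Nfe2, an erythroid and megakaryocytic factor that activates globin and platelet genes, had 2 narrower of 4 regions. The stronger one (chr15:103251499-103253319) was 1711, 1540 and 1652 bp wide in WT1, WT2 and WT3 and 497, 508 and 431 bp in KO1, KO2 and KO3 (log2 difference -1.77 ± 0.09 SE, limma adjusted p = 2.08e-04). The weaker one (-1.23) was lost without WT1, KO1 or KO3. Zfpm1, encoding the GATA1 partner FOG1, had 2 narrower of 4 (-1.11 and -1.28), both firm. Lmo2, which links GATA1 to TAL1, had 1 of 4 (-0.69), lost without WT3 or KO3. Genes of the red cell skeleton differed. At Ank1 (ankyrin, -0.42 and -0.49) 2 of 2 regions were narrower, and at Sptb (beta spectrin, -0.85 and -0.76) 2 of 2. All 4 of these calls were lost without WT1, WT2 or WT3, among other samples. Epb41, also a red cell skeleton gene, had 0 narrower and 1 wider of 5 regions. Gypc, a glycophorin, Urod, an enzyme of haem synthesis, and Car2, a carbonic anhydrase, had 1 each of 1, 1 and 5, of which that of Urod was lost without any 1 wild-type sample. The Urod region lay inside the neighbouring gene Zswim5, 2686 bp from Urod. The single wider region lay 12267 bp from Epb41, at 331, 436 and 299 bp in wild type and 869, 925 and 876 bp in knockout (1.34, adjusted p = 0.00195). Bcl11a, a repressor of fetal globin, had 7 regions and no call.

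**Figure D3:**
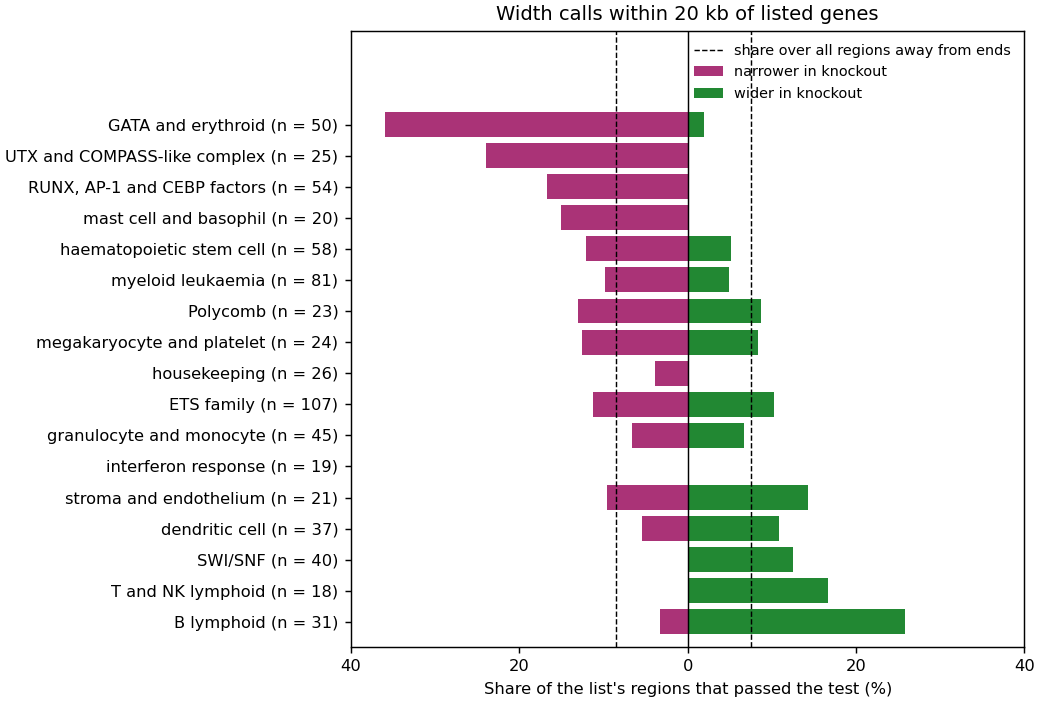
Share of distal shared regions in or within 20 kb of the genes of 17 lists that were narrower (left) or wider (right) in knockout, in percent of the list's n regions, with the shares over all 20509 distal shared regions dashed (8.47% and 7.54%). GATA and erythroid genes reach 36.0% narrower and B lymphoid genes 25.8% wider, and the bars carry no test.

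Of the regions that passed the test near genes of B lymphoid cells, all but 1 were wider in knockout. Of 31 distal shared regions near 16 of 18 B lymphoid genes, 8 were wider (25.8%), 1 was narrower (3.23%) and 22 did not pass. Over all distal shared regions 7.54% were wider and 8.47% narrower. The median log2 difference of the list was 0.32. The list's median width was 407, 444 and 399 bp in WT1, WT2 and WT3 and 542, 567 and 573 bp in KO1, KO2 and KO3, so that the groups did not overlap. The summed width of the list's regions ranged from 13701 to 14211 bp in wild type and from 17283 to 19989 bp in knockout. Whether the fraction held more B lineage cells in knockout was not tested. The number of wider calls was 12 with median-centred widths and 13 with quantile normalization, and 6 to 9 with single samples left out. Of the 8, 6 were firm, and those of Ms4a1 and Foxo1 were lost without WT1, WT3 or KO3, among others.

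The wider B lymphoid regions lay in or near genes from successive steps of the lineage. Ebf1, a founding transcription factor of B cells, had a region 6273 bp away (chr11:44610865-44611827) that was 217, 289 and 324 bp wide in WT1, WT2 and WT3 and 690, 963 and 797 bp in KO1, KO2 and KO3 (log2 difference 1.57, limma adjusted p = 0.00257). Near Rag1, which cuts immunoglobulin and T cell receptor genes, the region chr2:101665224-101666032 was 342, 338 and 329 bp in wild type and 771, 738 and 733 bp in knockout (1.15 ± 0.09 SE, adjusted p = 6.61e-04). It lay 15692 bp from Rag1 and 12388 bp from Traf6, its nearest protein-coding gene. Widths were nearly equal within each genotype there and differed by more than 2-fold between them. Near Blnk, a signalling adaptor of the pre-B receptor, the values were 389, 314 and 383 bp against 915, 1081 and 1115 bp (1.52, adjusted p = 7.44e-04). The Il7r region, near the receptor of the growth factor interleukin-7, was wider (1.11), as were those of the surface protein Ms4a1 (0.73), the adaptor Bank1 (1.20) and the factor Foxo1 (0.84). The narrower region lay in Arhgef1, 4951 bp from Cd79a (-0.91, adjusted p = 0.0297), and this call was kept without KO1 and lost without any other single sample. Pax5 had 1 region, not called, with a log2 difference of 0.99, and Dntt had 5 and no call.

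ETS family genes went both ways. Near 19 of 25 ETS genes lay 107 distal shared regions, of which 12 were narrower (11.2%) and 11 wider (10.3%). Over all distal shared regions the shares were 8.47% and 7.54%. The list's median log2 difference was -0.10, equal to that of all shared regions. The narrower count was 9 with median-centred widths, 7 with quantile normalization and 4 to 9 with single samples left out (4 without WT3, 5 without WT1, 6 without KO3 and 7 without WT2), and the wider count 15, 15 and 7 to 10 (7 without WT1 or KO3). Ets1, a factor of lymphoid cells, had 4 wider and 0 narrower of 11 regions in or within 20 kb. Its region chr9:32695525-32697093 was 895, 794 and 870 bp wide in WT1, WT2 and WT3 and 1524, 1458 and 1536 bp in KO1, KO2 and KO3 (0.82 ± 0.07 SE, limma adjusted p = 9.45e-04). The groups were far apart, and the 3 other called regions of Ets1 had log2 differences of 0.87 to 1.02. All 4 calls were firm.

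Erg, an ETS factor of stem and endothelial cells, had 1 narrower and 2 wider of 17 regions. Its strongest, chr16:95427244-95428744, was 278, 372 and 225 bp wide in WT1, WT2 and WT3 and 1467, 1242 and 1501 bp in KO1, KO2 and KO3 (log2 difference 2.29 ± 0.19 SE, limma adjusted p = 6.61e-04), with the groups far apart. In the same gene chr16:95415915-95416496 was narrower (-0.89, adjusted p = 0.00668) and chr16:95457968-95459836 wider (0.47, adjusted p = 0.0382), the latter lost without any sample other than WT2. Spi1, encoding PU.1, the factor of myeloid and B cells, had 1 of each among 5 regions: a region 3101 bp outside the gene was 447, 523 and 462 bp wide in wild type and 882, 1026 and 710 bp in knockout (0.86, adjusted p = 0.0108), and 1 inside was narrower (-0.55, adjusted p = 0.0378) and lost without any 1 of the 6 samples. Fli1 had 1 narrower of 10 (-0.48, adjusted p = 0.0412), a call that was kept without KO1 and lost without any other single sample and with median-centred widths. Etv6 had 2 narrower of 20 regions, Elf1 2 of 10 and Elf2 3 of 8, with 1 firm call at Etv6, 1 near Elf2 and 0 at Elf1. None of the 3 near Elf2 overlapped that gene. They lay inside Noct, 17892 and 13750 bp from Elf2, and outside genes at 17291 bp, and the firm call was the one at 17892 bp.

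**Figure D4:**
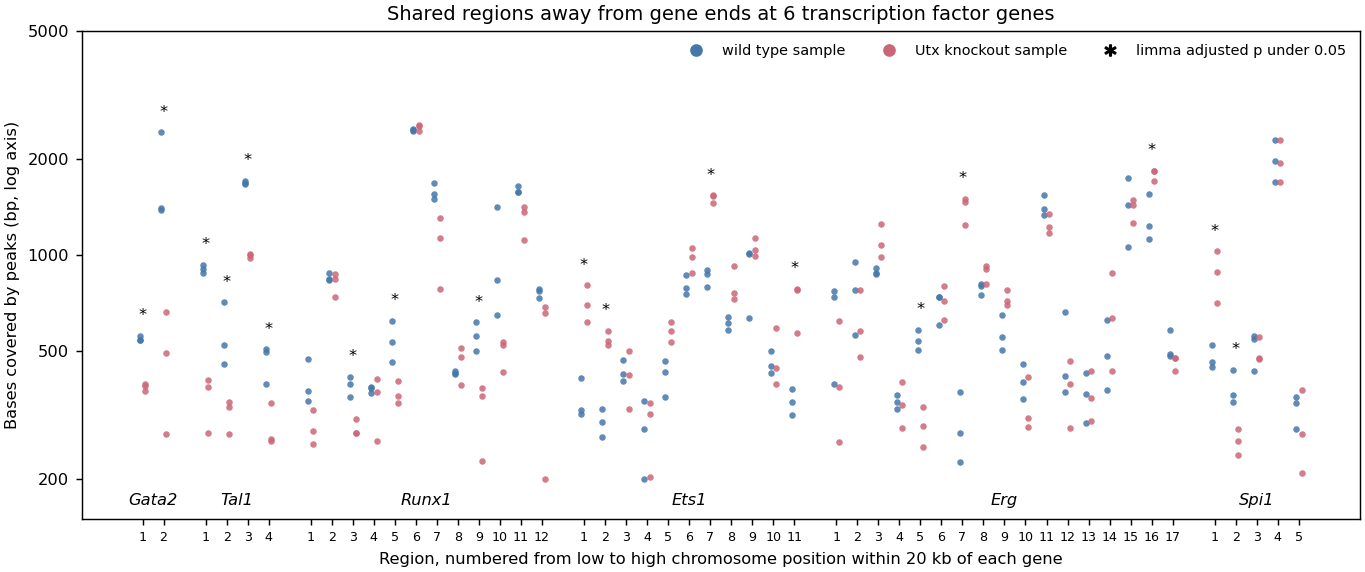
Bases covered by peaks (bp, logarithmic axis) in each sample, for every distal shared region in or within 20 kb of 6 transcription factor genes, numbered by position, with stars for limma adjusted p under 0.05. All regions of Gata2 (2) and Tal1 (4) are starred with knockout points below wild type, whereas the 4 starred regions of Ets1 have knockout points above.

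Factors of the RUNX, AP-1 and CEBP families had 9 narrower (16.7%) and 0 wider among 54 regions, with a median log2 difference of -0.31. Over all distal shared regions 8.47% were narrower and 7.54% wider. Runx1, a factor required to form blood stem cells, had 3 narrower of 12 regions, with log2 differences of -0.44 to -0.81 and adjusted p values of 0.0422 to 0.0436. The call of the largest of them, chr16:92764686-92765301, was lost without WT1, WT2, WT3 or KO2, and none of the 3 was firm. The Runx1 region with the start printed above (chr16:92696527-92699082) was 2434, 2478 and 2462 bp wide in WT1, WT2 and WT3 and 2541, 2522 and 2443 bp in KO1, KO2 and KO3, and it was not called (0.03, limma adjusted p = 0.719). Batf, an AP-1 factor of lymphoid cells, had a region of 1314, 1373 and 1308 bp in wild type and 752, 794 and 784 bp in knockout (-0.78, adjusted p = 8.85e-04). Regions near Runx2 (-0.67), Cebpb (-1.14), Junb (-0.51), Fosl2 (-0.77) and Fosb (-0.41) were narrower as well. Of the 9 narrower calls 4 were firm, in or near Batf, Runx2, Cebpb and Junb. The count was 5 without WT1, 5 to 8 in all fits with a sample left out, and 6 with either scaling or a replicate block.

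Stem cell genes had 7 narrower (12.1%) and 3 wider (5.17%) among 58 regions, against 8.47% and 7.54% of all distal shared regions. Their median log2 difference was -0.19. The narrower ones lay in Runx1 (3), in Meis1 (1), in Nfix at 4417 and 17860 bp from Lyl1 (2), and 14405 bp from Kit (1), which encodes the receptor of stem cell factor. The count fell to 1, 2, 2, 4 and 2 without WT1, WT2, WT3, KO2 or KO3, so that 0 of the 7 calls were firm. The wider ones lay in Flt3, the receptor that marks lymphoid-primed progenitors, and in Msi2, an RNA-binding protein of stem cells. In Flt3, chr5:147340777-147341667 was 423, 550 and 494 bp wide in WT1, WT2 and WT3 and 819, 833 and 891 bp in KO1, KO2 and KO3 (0.80 ± 0.12 SE, limma adjusted p = 0.00583), and a second region was wider by a log2 difference of 0.59, both firm. The Msi2 call (0.73) was lost without WT2, WT3 or KO3. Megakaryocyte genes had 3 narrower (12.5%) and 2 wider (8.33%) of 24. The calls were narrower near Itga2b (-0.82), which encodes an integrin of platelets, Pf4 (-0.95) and Vwf (-0.29), and wider in Selp (1.22) and Itgb3 (0.56). Those of Itga2b and Selp were firm, that of Itgb3 was lost without KO3, that of Pf4 without WT1, WT3 or KO2, and that of Vwf without any sample other than KO2. Mast cell and basophil genes had 3 narrower and 0 wider of 20, of which 2 are the Gata2 regions above and 1 lay in Mitf. Of these 1 was firm, and the count was 1 without WT1 or WT2, 5 without KO1 or KO2 and 1 with a replicate block.

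Granulocyte and monocyte genes had 3 narrower (6.67%) and 3 wider (6.67%) of 45 regions, near the 8.47% and 7.54% of all distal shared regions. The wider ones included 2 near Irf8, a factor of monocytes and dendritic cells (1.03 and 0.73), and 1 between Csf1r and Pdgfrb (0.89), and the narrower ones lay 12193 bp from Csf3r, in Oscp1 (-1.26), 19590 bp from Cebpb (-1.14) and 17526 bp from Ngp (-0.67). Of the 6 calls 4 were firm, whereas the second Irf8 call and that near Ngp were lost in most fits with a sample left out. Dendritic cell genes had 2 narrower (5.41%) and 4 wider (10.8%) of 37. A wider region lay in Tcf4, a factor of plasmacytoid dendritic cells (1.52), and a narrower one in Zbtb46 (-1.30), both firm. The other wider ones are the 2 Flt3 regions above and 1 in Pold1, near Spib, which also counts in the ETS list. T and NK genes had 0 narrower and 3 wider (16.7%) of 18. Of these 2 lay near Cd2 (0.92 and 0.73) and 1 near Klrb1c (0.81), the last kept only without KO1. The median of the T and NK list, -0.02, turned to 0.04 with median-centred widths and 0.05 with quantile normalization. Stroma and endothelium genes, markers of cells that lineage depletion does not remove, had 2 narrower (9.52%) and 3 wider (14.3%) of 21, and 1 narrower without any sample other than KO1. The wider ones include the region between Csf1r and Pdgfrb above, so a region can count in more than 1 list.

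Of all distal shared regions 8.47% were narrower and 7.54% wider. Among chromatin genes, those of UTX and the COMPASS-like complexes had 6 narrower (24.0%) and 0 wider of 25 regions. These regions lay mostly inside neighbouring genes, and within 5 kb of a list gene 1 of 16 was narrower. At chr5:123135470-123140188, in Rhof and 1852 bp from Setd1b, a methyltransferase for lysine 4 of histone H3, widths were 4186, 4481 and 4314 bp in WT1, WT2 and WT3 and 2621, 2902 and 2342 bp in KO1, KO2 and KO3 (log2 difference -0.73 ± 0.08 SE, limma adjusted p = 0.00171). The groups did not overlap, and the call was firm. SWI/SNF genes had 0 narrower and 5 wider (12.5%) of 40 regions, and 3 of the 5 lay inside the neighbouring genes Adcy7, Rnf41 and Chchd10. The wider count was 3 without KO2 or KO3, 3 of the 5 calls were firm, and within 5 kb of a list gene 2 of 28 regions were wider. In Arid1b, a subunit of that remodelling complex, chr17:5329718-5331873 was 384, 440 and 328 bp wide in wild type and 1746, 1824 and 2119 bp in knockout (2.31 ± 0.13, adjusted p = 2.16e-04), with the groups far apart. The list's median log2 difference was -0.08 and turned to 0.02 with quantile normalization. Polycomb genes had 3 narrower and 2 wider of 23, and the narrower count was 1 without WT1 or WT2 and 1 to 2 in all fits with a sample left out.

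Genes mutated or misregulated in myeloid leukaemia had 8 narrower (9.88%) and 4 wider (4.94%) of 81 regions, of which 2 and 1 were firm. Over all distal shared regions the shares were 8.47% and 7.54%. The narrower count was 3 without WT1 and 4 without WT3, KO1, KO2 or KO3, and the wider count 2 without WT3 and 1 without KO2 or KO3. In Dnmt3a, a DNA methyltransferase, chr12:3870789-3871964 was 1118, 1133 and 1123 bp wide in WT1, WT2 and WT3 and 619, 487 and 548 bp in KO1, KO2 and KO3 (log2 difference -1.04 ± 0.10 SE, limma adjusted p = 0.00135). In Cdk6, a cell cycle kinase, chr5:3463223-3464104 was 737, 808 and 882 bp in wild type and 224, 335 and 304 bp in knockout (-1.51, adjusted p = 0.00195). Cdk6 had 1 other narrower region (-0.73) and 1 wider one (0.36), and Bcl2 and Ikzf1 also had 1 of each direction. The firm calls were the Dnmt3a region, the first Cdk6 region and the wider Bcl2 region. Interferon response genes had 0 calls among 19 regions and housekeeping genes 1 among 26, narrower and not firm.

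Transcription starts annotated by RefSeq lay in 1504 distal shared regions (7.33%). They lay in 142 of the narrower regions (8.18%), 96 of the wider (6.21%) and 1266 of those not called (7.35%), shares near that of all. Of 1833 starts, 1574 lay under a peak in all 6 samples, 19 under a peak of every wild-type and no knockout sample, and 15 in the reverse case. In narrower regions these numbers were 16 and 0 of 170 starts, and in wider regions 0 and 13 of 113. The direction is fixed by the calls. At Shld1, a DNA repair factor, the region chr2:132689135-132690465 was 1157, 1228 and 1331 bp wide in WT1, WT2 and WT3 and 355, 294 and 283 bp in KO1, KO2 and KO3 (log2 difference -2.00, limma adjusted p = 2.42e-04), and peaks of wild-type samples alone covered its start. At Ampd3, an AMP deaminase of red cells, the region chr7:110773120-110775117 was 1884, 1908 and 1998 bp in wild type and 653, 440 and 449 bp in knockout (-1.93, adjusted p = 6.20e-04), and both calls were firm. The Ampd3 start stayed under a peak in KO1 and KO2 and not in KO3.

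The motif words were counted in 1 window of 300 bases, 250 before and 50 after the start, per region with a start. The GATA word AGATAA stood in 14.8% of the windows of narrower regions (21 of 142), 7.29% of wider (7 of 96) and 7.50% of regions not called, against 11.2% of all 32851 RefSeq start windows. The RUNX word TGTGGT stood in 22.5%, 25.0% and 15.2%, against 16.8% of all windows, and the AP-1 word TGANTCA in 10.6%, 9.38% and 6.71%, against 7.81%. The ETS word GGAAGT was found in 31.7%, 22.9% and 31.1%, against 23.8%, the CEBP word TTGCNNAA in 15.5%, 9.38% and 11.8%, against 10.8%, and the CTCF word AGGGGGC in 14.8%, 11.5% and 15.2%, against 10.6%. The EBF word was in 0 narrower, 0 wider and 1.03% of windows not called. Among the sequences printed above, the Ampd3 window holds a GATA, an ETS and a CTCF word, Shld1 a GATA word, Slamf7 an AP-1 word and Gata2 a CTCF word. These shares cover the few regions with a start and no test was made between them.

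Hairpins of microRNAs, short RNAs that repress messages paired with bases 2 to 8 of the mature strand (the seed), lay in 25 distal shared regions, 29 hairpins of 1005 in the RefSeq table. Of these regions 1 was narrower and 2 were wider, where 8.47% and 7.54% of all distal shared regions were. Counts this small do not set regions with a hairpin apart from the rest. The mature sequences of 2 microRNAs with a called region and 1 myeloid microRNA without one follow. The seed is in capitals, and the 3 seeds differ.
miR-210-3p: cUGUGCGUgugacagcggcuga
miR-155-5p: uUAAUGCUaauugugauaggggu
miR-223-3p: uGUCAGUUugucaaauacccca
The region of Mir210, a hypoxia-induced microRNA, was 1125, 1112 and 996 bp wide in WT1, WT2 and WT3 and 751, 765 and 671 bp in KO1, KO2 and KO3 (chr7:141221364-141222501, log2 difference -0.56 ± 0.09 SE, limma adjusted p = 0.00855). The region of Mir155, a microRNA of activated B and myeloid cells, was 214, 247 and 212 bp in wild type and 362, 274 and 395 bp in knockout (chr16:84713881-84714296, 0.60, adjusted p = 0.0483). The groups did not overlap in either, though KO2 came close to WT2 at Mir155. The Mir210 call was firm, and that of Mir155 was lost without any sample other than KO2. The region of Mir5618 was wider too (1.83, adjusted p = 0.0149), lost without KO3. At Mir223, which acts in granulocytes, widths of 559, 595 and 218 bp in wild type and 409, 373 and 322 bp in knockout overlapped (-0.19, adjusted p = 0.751).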

How the data were processed

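ATAC-seq was measured in 3 wild-type and 3 Utx-knockout samples, grouped by the genotype in their labels. The authors deposited 1 peak list per sample, called separately, with chromosome, start and end (unit other: coordinates in bp, with no score or count). Per the submitters' processing notes, the caller was MACS2 and the build mm10, without versions. The file labels carry a p threshold of 1e-11. Not given in the sources used here are aligner, read filters, insertion-site shift, duplicate handling and depth. A longer or wider peak can reflect a deeper or cleaner library as well as more open DNA.

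From these lists, peaks were merged where they shared at least 1 bp, and the bases covered by each sample's peaks in each region were counted (Python 3.11.15, pandas 2.3.3). Their log2 values, unscaled, were compared by limma 3.58.1 (lmFit and eBayes with trend, R 4.3.3) over all 31159 regions with a peak in every sample, with Benjamini-Hochberg adjustment over all of them at 0.05. The procedure was tested on simulated data. Replicate numbers did not pair the samples, so no block was used. Gene positions (21887 protein-coding genes), starts and microRNAs came from RefSeq for GRCm38.p6, a table without strand for genes and without exons, so positions are given only as inside or outside a gene. Of 318 entries in 17 gene lists, 317 matched.

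Named regions were those of Kdm6a, the 8 largest decreases and increases, the 5 widest regions, the 3 with the smallest p per list, and the counts and best region of 8 factor genes (Gata1, Gata2, Tal1, Runx1, Spi1, Ets1, Erg and Fli1). Other regions are examples chosen after their values were seen. Some regions that meet these rules are not reported here. The members and lists were chosen with earlier results of these data known. Planned motif counts at region midpoints were not run, since no genome sequence was used here, and motifs were counted at RefSeq starts instead. Alternatives were 2 scalings, no trend, no log, a replicate block, each sample left out, other merging, width, peak number and gene end rules, and autosomes alone.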

Additional observations from a re-analysis of the deposited data

How the results depend on the processing

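The limits are the 3 samples per genotype, which leave few degrees of freedom, and the depth of the libraries, which is unknown. Narrower calls numbered 1737 of 20509 and were 1143 with a replicate block. A fit of regions with a mean of at least 500 bp kept fewer regions, and 913 of its 9035 distal ones were narrower. Over all shared regions in that fit 1896 of 18247 were narrower. With single samples left out they ranged from 888 to 1700, and wider calls, 1546 in the whole fit, from 979 to 1408. The median log2 difference of -0.11 was -0.047 with median-centred widths and -0.015 with quantile normalization, and ranged from -0.14 to -0.08 with single samples left out. Regions whose groups did not overlap numbered 4294 narrower and 3726 wider of 20509 with median-centred widths. Over all 31159 shared regions they numbered 6320 and 5152 in that setting. For the other alternatives run, counts over all distal shared regions stayed within 1.5 times the values reported, and the median over them kept its sign. Counts for single gene lists moved more, with 2 of them past 1.5 times for median-centred widths, 8 for quantile normalization, 8 for the block, 10 within 5 kb, 15 within 50 kb and 4 to 12 with a sample left out. With quantile normalization 4 stem cell and 5 myeloid leukaemia regions were narrower.

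Replicate numbers did not pair the samples: deviations of same-numbered samples correlated at -0.03, 0.03 and 0.01, and 1 of 6 samples correlated best with its own number. A replicate block left 1143 narrower and 1201 wider calls, 11 narrower near GATA and erythroid genes, 7 wider near B lymphoid genes, 0 narrower near stem cell genes, 5 narrower near ETS family genes and 1 wider near myeloid leukaemia genes. Of 75 named regions, 6 lost their call with the block, and 0 reversed in any alternative run for them. List counts under scaling, the block and left-out samples, and the number of firm calls, were alternatives chosen after seeing the data. Within 5 kb of a list gene 16 of 35 GATA and erythroid regions were narrower and 5 of 21 B lymphoid regions wider, and within 50 kb 24 of 83 and 12 of 42. Within 5 kb granulocyte and monocyte genes had 0 narrower and 1 wider of 19 regions, Polycomb genes 1 narrower of 17, and ETS family genes 6 narrower of 90. Within 50 kb SWI/SNF genes had 6 narrower of 62 and RUNX, AP-1 and CEBP genes 5 wider of 81, where neither had any within 20 kb.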
